A study of Homo sapiens with 6 samples.

Results

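BH3-only proteins and the effectors BAX and BAK1 form the killing side of the BCL2 family. A BH3-only protein carries a short helix, the BH3 domain, with which it occupies the groove of anti-apoptotic partners such as MCL1 and BCL2L1 or, for some members, activates BAX and BAK1 directly. Activated BAX and BAK1 form pores in the outer mitochondrial membrane, cytochrome c leaves the mitochondrion and caspases follow. In lung adenocarcinoma cells with mutant EGFR the BH3-only protein BIM is known for its part in cell death under EGFR inhibitors.

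The group was fixed by name and held 10 genes of the 60671 rows in the deposited table, 8 of them BH3-only (BCL2L11, PMAIP1, BBC3, BMF, BIK, HRK, BID and BAD) and 2 effectors (BAX and BAK1). Each symbol matched 1 Ensembl gene. RNA was sequenced from A549, HCC827 and H1975, 3 established human lines of non-small cell lung cancer, after 48 h with AL-X, the kaurane diterpenoid 9α,11αOH-KA at 10 µg/mL, or after 48 h with its solvent DMSO. The genotype tag of all 6 samples is WT, but HCC827 and H1975 are known to carry mutant EGFR. Every line gave 1 library with AL-X and 1 with DMSO, so the 3 lines served as the replicates of a shared effect, and a difference within a line has no replicate.

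Library totals ran from 98139178 to 126840915 counts. Levels below are CPM (counts of the gene per 1e+06 scaled counts of the library) after TMM scaling, which sets the scale of each library from the bulk of its genes, and CPM per kilobase of exon (CPM/kb) where genes are compared with each other. The scale matters in these data. With library totals in place of TMM the median log2 fold of all genes considered moved by -1 in A549, by 0.13 in HCC827 and by -0.41 in H1975, so that 19.5%, 47.8% and 19.7% of the genes at 2-fold were higher in the 3 lines. Mitochondrial genes took 0.0201% to 0.656% of the counts with AL-X, against 6.41% to 6.87% with DMSO, and their part in the results was not tested beyond leaving them out. The keratins KRT8 and KRT18 were at 363 CPM or more in every library and the leukocyte markers PTPRC and CD3E had 0 counts in all 6. In A549 the epithelial marker EPCAM was at 1.47 CPM with AL-X and 2.67 CPM with DMSO, and the lung lineage factor NKX2-1 was at 0 CPM with AL-X and 0.0821 CPM with DMSO, so these defining markers were absent or nearly so in that line. The epithelial markers KRT19 and CLDN4 were also low in A549, at 4.62 and 2.98 CPM with AL-X and 5.00 and 0.919 CPM with DMSO. CDH1 was at 15.6 CPM with AL-X and 209 CPM with DMSO in that line. In such bulk RNA, fewer cells with a transcript and less transcript per cell cannot be told apart.

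What the members share is the core of the BH3 domain, a leucine codon, any 3 codons, a codon for a small residue and an aspartate codon. The stretch that encodes it is shown for all 10 because it is the feature by which the family is defined. Each was read from a GENCODE release 29 transcript on GRCh38, 5′ to 3′ on the coding strand, with the 6 core codons in capitals and 4 codons on either side in lower case.
BCL2L11: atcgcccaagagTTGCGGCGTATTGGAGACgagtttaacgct
BID: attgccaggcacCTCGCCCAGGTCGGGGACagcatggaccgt
BBC3: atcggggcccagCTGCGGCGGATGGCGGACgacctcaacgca
PMAIP1: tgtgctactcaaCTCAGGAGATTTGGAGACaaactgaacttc
BMF: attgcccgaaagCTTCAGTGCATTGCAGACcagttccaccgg
BAD: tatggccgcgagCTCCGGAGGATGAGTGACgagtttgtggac
BIK: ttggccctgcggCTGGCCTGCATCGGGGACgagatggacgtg
HRK: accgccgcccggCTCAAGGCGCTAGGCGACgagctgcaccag
BAX: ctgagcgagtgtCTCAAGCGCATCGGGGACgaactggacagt
BAK1: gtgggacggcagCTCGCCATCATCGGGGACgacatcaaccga
The small residue is encoded as glycine in 7 genes, as alanine in 2 (BBC3 and BMF) and as serine in 1 (BAD). Over the 18 core bases, pairs of members had between 7 and 15 bases in common, with a median of 11 over 45 pairs. The closest pair was BIK with BAK1.

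Among the BH3-only genes, PMAIP1 was higher with AL-X in all 3 lines and BMF was lower in all 3. BBC3 was also higher in each line on the TMM scale, though not in A549 by library totals. BCL2L11, BAX and BIK were somewhat higher in each line on the TMM scale, BID and HRK were lower in each, and BAD and BAK1 differed in sign between lines. None of the 10 passed the across-line test (edgeR quasi-likelihood test with line as a block, Benjamini-Hochberg adjusted p under 0.05, 2 residual degrees of freedom), against 0.0983% of 20344 genes called higher and 0.157% called lower. At an unadjusted p under 0.05 there were 2 of 10, PMAIP1 and BMF, near the 15.7% of all genes at that level. These 2 also passed in DESeq2 and in limma-voom. The median log2 fold over the 10 was 0.29, beside -0.27 over all genes tested.

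**Figure D1:**
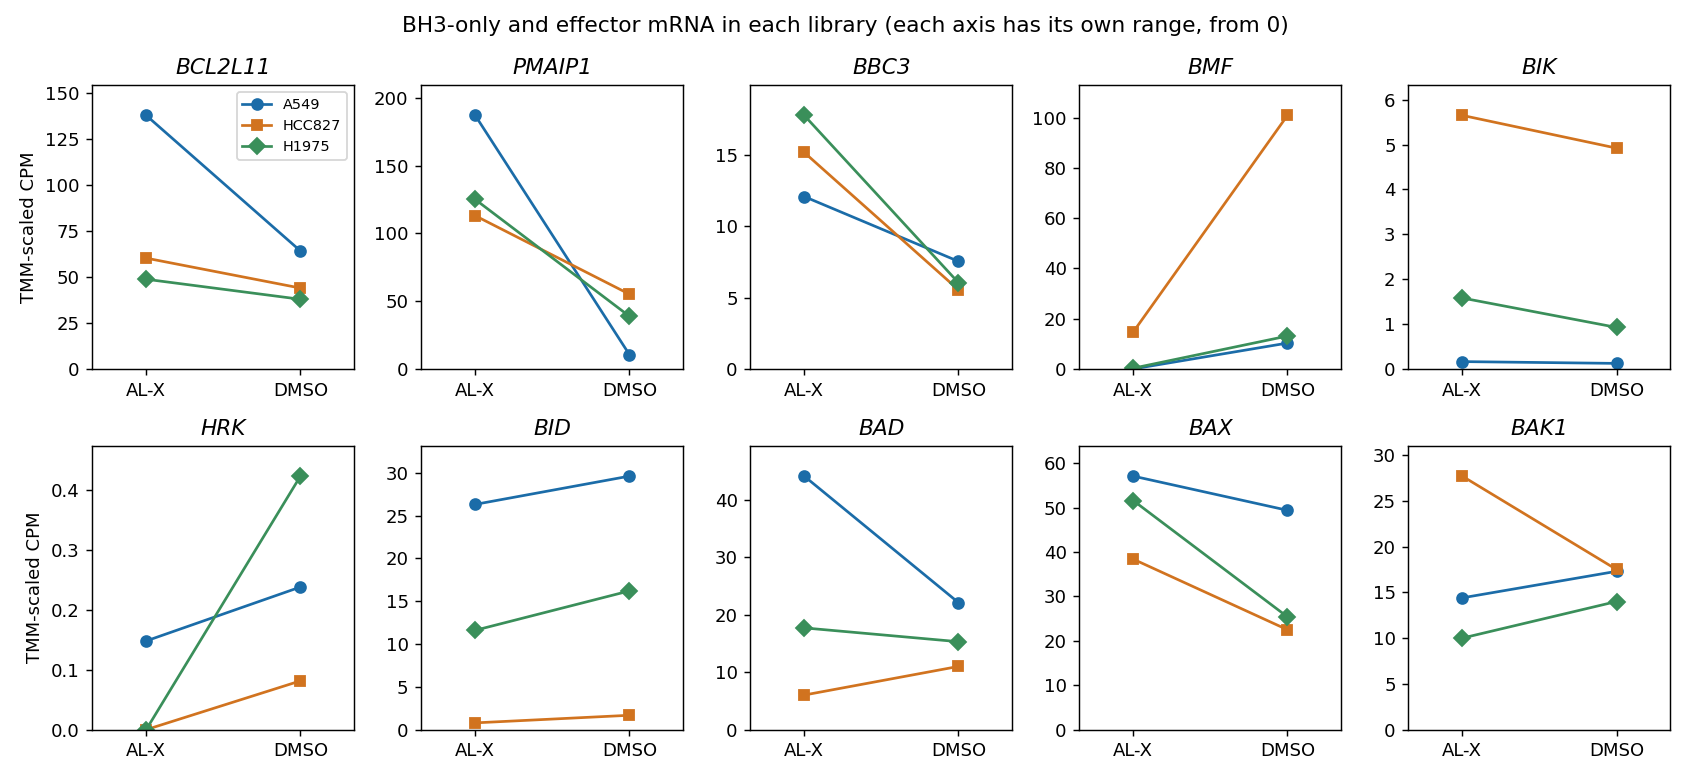
TMM-scaled CPM of each gene in the AL-X library and the DMSO library of A549, HCC827 and H1975, joined by line, each panel on its own linear axis from 0. The AL-X points of PMAIP1 and of BBC3 all lie above the DMSO points, and BMF is at 0 or near it with AL-X in A549 and H1975.

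PMAIP1 (ENSG00000141682, GRCh38 chromosome 18, 59899948 to 59904306, plus strand) encodes NOXA, a short BH3-only protein that binds MCL1 in preference to most other partners and whose gene is a target of ATF4. It had 12595 counts (187 CPM) with AL-X in A549, against 1276 counts (10.5 CPM) with DMSO. In HCC827 it had 14092 counts (113 CPM) with AL-X and 8118 (55.1 CPM) with DMSO. In H1975 it had 12659 counts (125 CPM) with AL-X and 4858 (38.8 CPM) with DMSO. All 3 AL-X libraries lay above all 3 DMSO libraries. A549 was the highest line with AL-X and the lowest with DMSO. The mean was 142 ± 39.7 CPM with AL-X and 34.8 ± 22.6 CPM with DMSO (SD, n = 3 lines each). The difference was 17.8-fold in A549 (log2 4.16, exact binomial 95% interval 4.08 to 4.24, counting error only), 2.05-fold in HCC827 (1.04, interval 1 to 1.08) and 3.23-fold in H1975 (1.69, interval 1.64 to 1.74).

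Across lines PMAIP1 was 2.24 log2 units higher (SE 0.65, edgeR adjusted p = 0.164), higher in 3 of 3 lines. DESeq2 gave 2.24 (adjusted p = 0.0176), where 3.07% of genes were called higher, and limma-voom 2.25 (adjusted p = 0.0334), where 1.59% were. Over 12 alternatives the adjusted p lay between 0.0176 and 0.569 and the log2 fold between 1.41 and 2.88. With library totals the within-line values were 3.15, 1.16 and 1.28 in A549, HCC827 and H1975, so the direction held on that scale. Without A549 the across-line value was 1.41 (edgeR adjusted p = 0.315). With the mitochondrial genes left out of the table the across-line value was again 2.24 (adjusted p = 0.167).

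BMF (ENSG00000104081, chromosome 15, 40087890 to 40108892, minus strand) encodes a BH3-only protein that is tethered to myosin V motors through dynein light chain 2 and binds several anti-apoptotic partners. In A549 it had 0 counts with AL-X, against 1253 (10.3 CPM) with DMSO. In HCC827, where it was most abundant, it had 1834 counts (14.7 CPM) with AL-X and 14881 (101 CPM) with DMSO. In H1975 it had 29 counts (0.287 CPM) with AL-X and 1646 (13.1 CPM) with DMSO. Each AL-X library was under its own DMSO library, but the groups overlapped, since the AL-X library of HCC827 was above the DMSO libraries of the other lines. The mean was 4.99 ± 8.4 CPM with AL-X and 41.5 ± 51.5 CPM with DMSO (SD, n = 3 lines each). With a floor of 3 counts in the empty library, BMF was 231-fold lower in A549. The upper end of the exact interval there was a log2 fold of -7.55. Its log2 fold was -2.78 in HCC827 (interval -2.85 to -2.71) and -5.43 in H1975 (interval -6.10 to -4.99).

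Across lines the BMF log2 fold was -5.43 (SE 1.16, edgeR adjusted p = 0.0888), lower in 3 of 3 lines, and BMF ranked at place 119 of 20344 genes by p. DESeq2 gave -5.70 (adjusted p = 1.61e-06, 7.08% of genes called lower) and limma-voom -4.48 (adjusted p = 0.0168, 1.66% called lower). Without A549, whose AL-X library is the one at 0 counts, edgeR gave -4.04 (adjusted p = 0.00516), where 0.369% of genes were called lower, and without H1975 it gave -5.47 (adjusted p = 0.00395), where 0.364% were. Without HCC827 it gave -7.23 and did not pass (adjusted p = 0.0637). Over 12 alternatives the adjusted p ranged from 1.61e-06 to 0.685 and the log2 fold from -7.23 to -3.05. Direction did not depend on the scale, with -2.65 in HCC827 by library totals and -5.89 across lines. BMF-AS1, an antisense gene that shares 461 of the exonic bases of BMF, had 0 counts in all libraries.

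BBC3 (ENSG00000105327, chromosome 19, 47220822 to 47232766, minus strand) encodes PUMA, which binds all anti-apoptotic partners. It had 812 counts (12.1 CPM) with AL-X in A549, against 920 (7.55 CPM) with DMSO. In HCC827 it had 1897 counts (15.2 CPM) with AL-X and 818 (5.55 CPM) with DMSO, and in H1975 1798 (17.8 CPM) with AL-X and 758 (6.05 CPM) with DMSO. On the TMM scale the groups did not overlap, and the mean was 15 ± 2.86 CPM with AL-X and 6.38 ± 1.04 CPM with DMSO (SD, n = 3 lines each). PMAIP1 and BBC3 were the 2 members whose AL-X libraries all lay above the DMSO libraries, as 7.78% of tested genes did. No member lay wholly below, as 9.54% did. HRK did so by library totals, but it met the filter on low counts only through its DMSO libraries. The log2 fold of BBC3 was 1.45 in HCC827 (interval 1.33 to 1.57), 1.55 in H1975 (1.43 to 1.68) and 0.67 in A549 (0.54 to 0.81), but -0.33 in A549 with library totals, where the groups then overlapped. The across-line value was 1.23 (SE 0.62, edgeR adjusted p = 0.359), so the gene did not pass.

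BCL2L11 (ENSG00000153094, chromosome 2, 111119378 to 111168447, plus strand) encodes BIM, an activator of BAX and BAK1 that also binds every anti-apoptotic partner. It had 138 CPM with AL-X and 64.2 CPM with DMSO in A549, 60.3 and 44.0 CPM in HCC827, and 48.8 and 37.9 CPM in H1975. The A549 pair differed by 1.11 log2 units (interval 1.06 to 1.15), the others by 0.46 and 0.36. The AL-X libraries of HCC827 and H1975 lay below the DMSO library of A549, so the groups overlapped. The across-line value was 0.64 (SE 0.46, edgeR adjusted p = 0.502), and by library totals the H1975 value was -0.05 and the A549 value 0.10. The lncRNA gene MIR4435-2HG on the other strand shares 727 of the exonic bases of BCL2L11, and since the strand setting is not known its reads cannot be told apart there.

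BID (ENSG00000015475, chromosome 22, 17734138 to 17774770, minus strand) links death receptors to mitochondria, as caspase 8 cleaves it into an active fragment. It had 1775 counts (26.3 CPM) with AL-X and 3611 (29.6 CPM) with DMSO in A549, 1178 (11.6 CPM) and 2029 (16.2 CPM) in H1975, and only 99 (0.793 CPM) and 248 (1.68 CPM) in HCC827. The levels followed the line more than the treatment, with HCC827 lowest in both groups. The log2 folds were -0.17, -0.47 and -1.07 in A549, H1975 and HCC827, and the across-line value of -0.57 (SE 0.58, edgeR adjusted p = 0.631) did not pass.

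BAD (ENSG00000002330, chromosome 11, 64269830 to 64284704, minus strand) is held inactive by 14-3-3 proteins when survival kinases phosphorylate it. It had 44.1 CPM with AL-X and 22.1 CPM with DMSO in A549, 6.02 and 11.0 CPM in HCC827, and 17.7 and 15.3 CPM in H1975. Its log2 fold was thus 0.99 in A549 (interval 0.92 to 1.07) and -0.87 in HCC827 (-1 to -0.75), with 0.21 in H1975. By library totals the A549 value was -0.01 and the H1975 value -0.20, so the sign in both depended on the scale. Across lines it was 0.11 (SE 0.59, edgeR adjusted p = 0.938). The exons of BAD share 404 bases, 23.7% of their length, with GPR137 on the other strand, whose log2 folds were -0.44, 0.10 and 0.32 in A549, HCC827 and H1975.

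BIK and HRK, BH3-only genes with narrow expression, were scarce. BIK (ENSG00000100290, chromosome 22), whose protein sits largely at the endoplasmic reticulum, had 705 counts (5.65 CPM) with AL-X and 726 (4.92 CPM) with DMSO in HCC827, 160 and 116 counts in H1975, and 11 and 15 counts in A549. Only in HCC827 did it reach 5 CPM, and there the log2 fold was 0.20 (interval 0.05 to 0.35). HRK (ENSG00000135116, chromosome 12), known from neurons, had 10, 0 and 0 counts with AL-X in A549, HCC827 and H1975, against 29, 12 and 53 counts with DMSO. With a floor of 3 counts in the empty library, HRK was 14.3-fold lower in H1975 and 3.39-fold lower in HCC827. The upper ends of the exact intervals there were log2 folds of -3.49 and -1.23. HRK stayed under 0.5 CPM in every library. Neither passed across lines (BIK 0.46, SE 0.87, edgeR adjusted p = 0.811, and HRK -4.01, SE 2.08, adjusted p = 0.370). HRK met the filter on low counts only through its DMSO libraries, which tilts its value toward lower with AL-X. The HRK value lay between -7.75 and -2.37 over 11 alternatives, with -7.75 without A549 and -2.39 without H1975.

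Of the effectors, BAX was higher in each line on the TMM scale, though not in A549 by library totals, and BAK1 was higher in HCC827 alone. BAX (ENSG00000087088, chromosome 19, 48954815 to 48961798, plus strand), whose protein moves from the cytosol to mitochondria, had 57.1 CPM with AL-X and 49.4 CPM with DMSO in A549, 38.4 and 22.5 CPM in HCC827, and 51.6 and 25.4 CPM in H1975. The log2 folds were 0.21, 0.77 and 1.03, and the across-line value was 0.67 (SE 0.48, edgeR adjusted p = 0.501). By library totals A549 had -0.80, so the direction there turned with the scale. BAK1 (ENSG00000030110, chromosome 6, 33572547 to 33580293, minus strand), which resides at the mitochondrion, had 14.4 CPM with AL-X and 17.3 CPM with DMSO in A549, 27.7 and 17.5 CPM in HCC827, and 10.0 and 14.0 CPM in H1975. Its across-line value was -0.03 (SE 0.57, edgeR adjusted p = 0.981), with 0.66 in HCC827 and -0.27 and -0.49 in A549 and H1975. The ratio of BAX counts to BAK1 counts, which no scaling affects, was 5.15 with AL-X and 1.81 with DMSO in H1975, 3.97 and 2.85 in A549, and 1.39 and 1.28 in HCC827, so it was higher with AL-X in each line. The pseudogene BAK1P1 had at most 36 counts in a library, where BAK1 had at least 970.

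**Figure D2:**
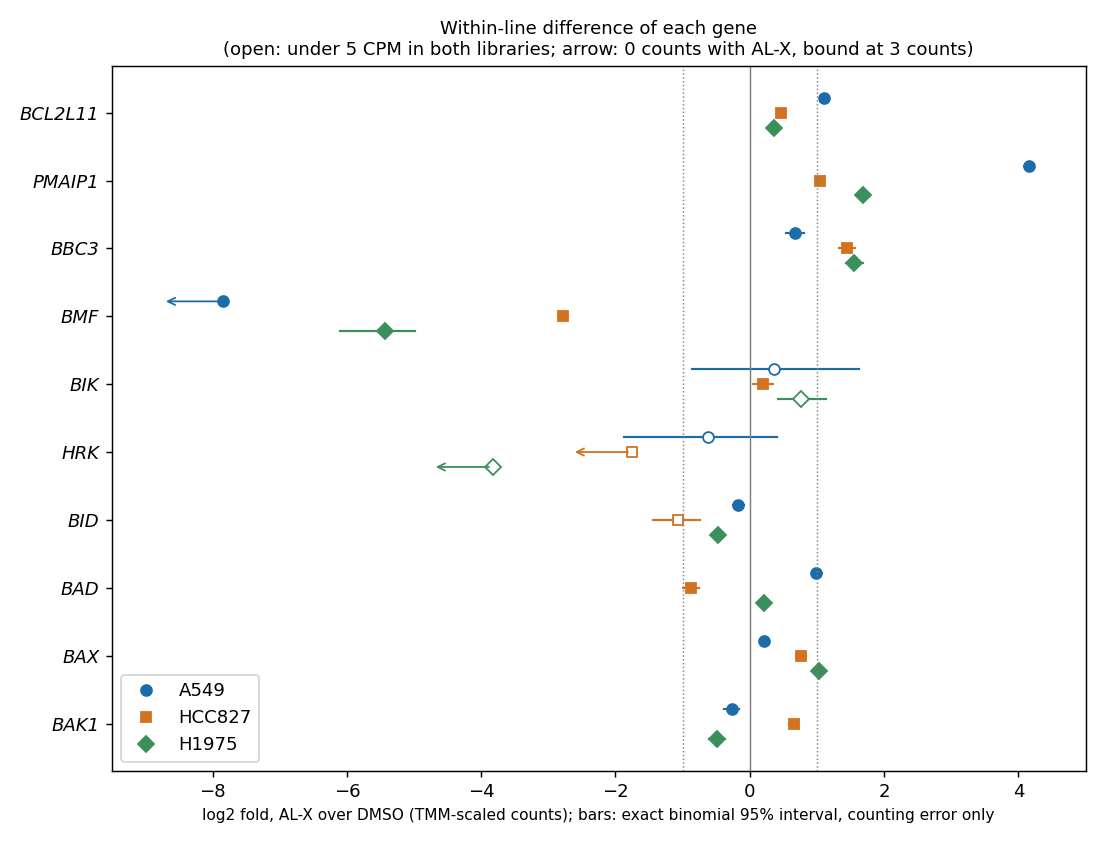
Log2 fold of AL-X over DMSO for each gene within A549, HCC827 and H1975, with exact binomial 95% intervals that cover counting error only. Open points are genes under 5 CPM in both libraries and dotted lines mark 2-fold. Arrows mark values at a floor of 3 counts where the AL-X library had 0 counts. BMF lies left of -2 in all 3 lines and PMAIP1 at 1.04 or more.

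Within lines, genes past the filter on low counts were considered where the higher library had 5 CPM or more, and a difference of 2-fold was the limit. Of the members 8 could be considered in each line. In A549 2 were higher (PMAIP1 and BCL2L11) and 1 lower (BMF), where 30.0% of all genes considered were higher and 31.4% lower. In HCC827 2 were higher (PMAIP1 and BBC3) and 1 lower (BMF), where 10.7% were higher and 17.2% lower. In H1975 3 were higher (PMAIP1, BBC3 and BAX) and 1 lower (BMF), where 15.4% were higher and 17.7% lower. In A549 a 2-fold difference was thus ordinary, and the counts there do not set the members apart. PMAIP1 was the 1 member at 2-fold higher in all 3 lines, as 2.66% of 10210 genes were, and BMF the 1 at 2-fold lower in all 3, as 3.46% were. The log2 fold of PMAIP1 stood at percentile 97.9 of the genes considered in A549, 90.0 in HCC827 and 95.7 in H1975. That of BBC3 stood at 63.6, 95.2 and 94.5, and that of BMF at 2.49 in HCC827 and 0.229 in H1975. The median over the members considered was 0.44, 0.56 and 0.29 in A549, HCC827 and H1975, beside 0.00, -0.04 and 0.07 over all genes considered. At 1.5-fold 5 members differed in A549, 6 in HCC827 and 4 in H1975, where 77.2%, 50.3% and 56.7% of all genes considered did. By library totals, 1 member was higher and 3 lower in A549, and 2 higher and 1 lower in H1975 as in HCC827. All genes considered in A549 then had a median log2 fold of -1.01, so 3 lower members there do not set the group apart. For H1975 that background median stood at -0.34, and for HCC827 at 0.09.

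**Figure D3:**
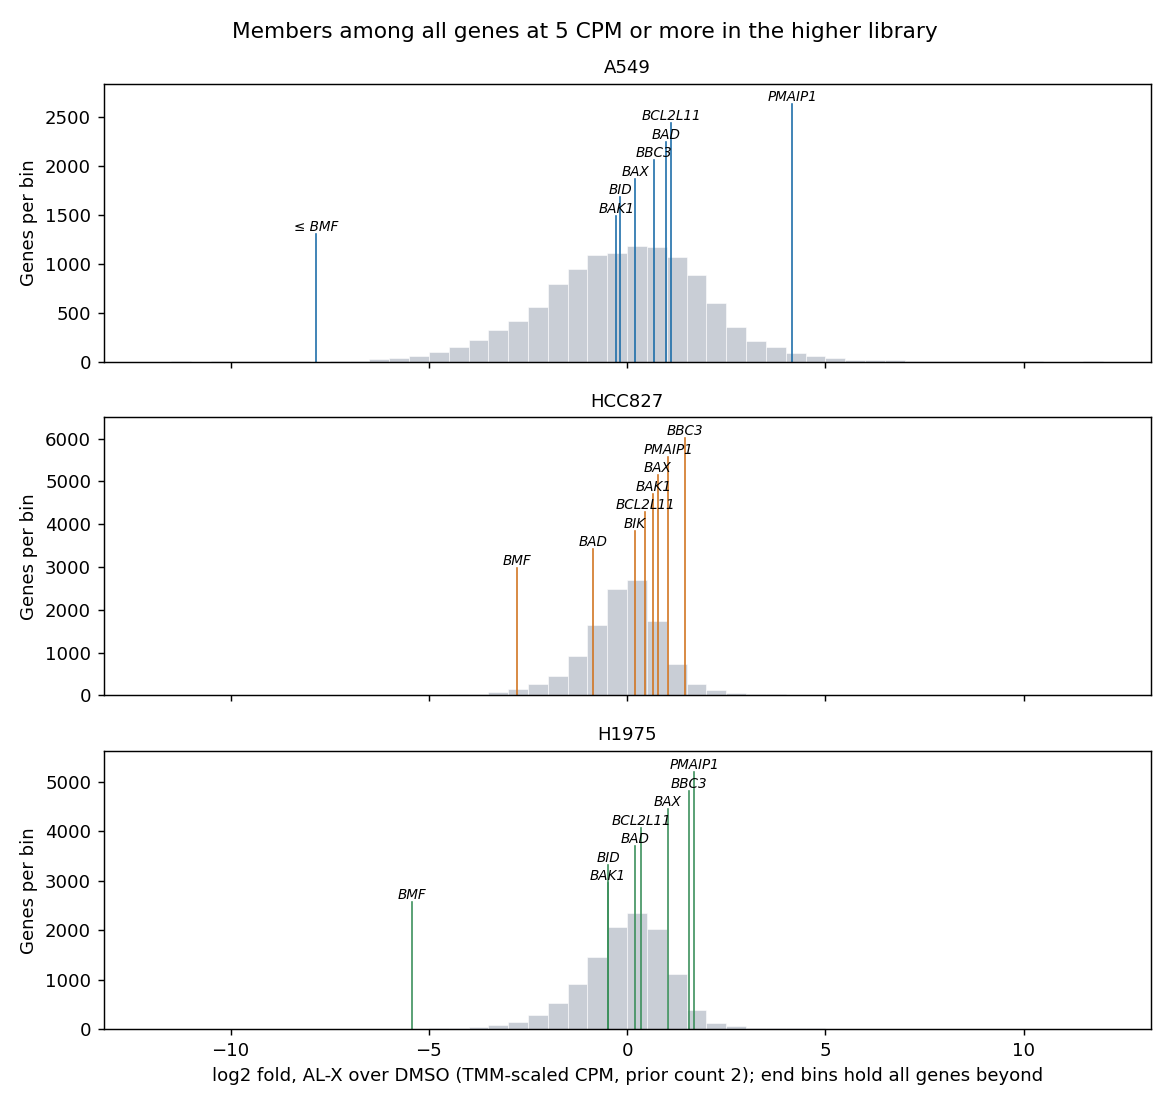
Number of genes (vertical axis) in bins of log2 fold, AL-X over DMSO, for genes whose higher library in that line had 5 CPM or more, with the members marked. BMF in A549 is drawn at its bound of -7.85, PMAIP1 lies in the upper tail in each line, and the spread of all genes is widest in A549.

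Whether a line responded unlike the mean of the others was tested with an interaction term, with 1 residual degree of freedom, which takes the spread of that line to equal that of the others. No member passed (edgeR adjusted p under 0.05), where 0.280% of genes passed for A549, 0.261% for HCC827 and 0.00% for H1975. At an unadjusted p under 0.05 there were 2 of 10 members for A549, 1 for HCC827 and 0 for H1975, where 11.0%, 8.19% and 1.16% of all genes were, so these counts do not set the members apart. For PMAIP1 the A549 fold exceeded that of the others by 2.79 log2 units (edgeR adjusted p = 0.156). For BMF the HCC827 fold was 4.19 log2 units above the others (edgeR adjusted p = 0.191), which include the A549 library with 0 counts. The A549 difference of BMF had an adjusted p of 0.0749 by edgeR, and its size rests on the library with 0 counts.

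Per length, the order of the members changed with AL-X. In A549 PMAIP1 was at 83.7 CPM/kb with AL-X, above BAD (25.8), BAX (22.1) and BCL2L11 (20.7), whereas with DMSO it was at 4.69 CPM/kb, below BAX (19.1), BAD (13), BCL2L11 (9.64), BAK1 (7.84) and BID (6.67). In HCC827 PMAIP1 was first in both libraries, at 50.5 CPM/kb with AL-X and 24.6 with DMSO. The second place there went to BAX with AL-X (14.9 CPM/kb) and to BMF with DMSO (18.5 CPM/kb). In H1975 PMAIP1 and BAX were first and second in both libraries, at 56.0 and 20.0 CPM/kb with AL-X and 17.3 and 9.81 with DMSO. Each of these levels rests on 1 library, so neighbours in the order cannot be told apart beyond counting error. Between the DMSO libraries, BMF and BIK were most abundant in HCC827 (18.5 and 5.17 CPM/kb, against at most 2.41 and 0.971 in the others), and BID was least abundant there (0.378 CPM/kb, against 3.64 in H1975 and 6.67 in A549).

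The make-up of the BH3-only counts within a library does not depend on scaling. PMAIP1 took 45.8% of the counts of the 8 BH3-only genes with AL-X in A549 (exact binomial 95% interval 45.3 to 46.4, counting error only) and 7.24% with DMSO (6.86 to 7.64). In HCC827 it took 52.4% (51.8 to 53.0) with AL-X and 24.7% (24.2 to 25.1) with DMSO, and in H1975 56.1% (55.5 to 56.8) and 30.1% (29.4 to 30.8). PMAIP1 was therefore the leading BH3-only gene by counts in every AL-X library, and its share was higher with AL-X in 3 of 3 lines. In HCC827 part of that difference came from BMF, which had 14881 counts with DMSO and 1834 with AL-X. PMAIP1 itself had 8118 counts with DMSO and 14092 with AL-X there. The share of BMF was 6.82% with AL-X and 45.2% with DMSO in HCC827, where it had led, and 0.129% and 10.2% in H1975. BID had a smaller share in every AL-X library than in the DMSO library of its line, such as 6.46% with AL-X and 20.5% with DMSO in A549. The share of BBC3 was higher with AL-X in HCC827 (7.05%, against 2.49% with DMSO) and H1975 (7.97%, against 4.70%) and lower in A549 (2.96%, against 5.22%). These shares count reads and favour longer transcripts equally in both groups. They are parts of a whole, so a larger share of any gene lowers the shares of the rest. The lower shares of BID, and that of BBC3 in A549, are thus not separated here from the larger PMAIP1 share. Shares with PMAIP1 left out of the sum were not computed.

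**Figure D4:**
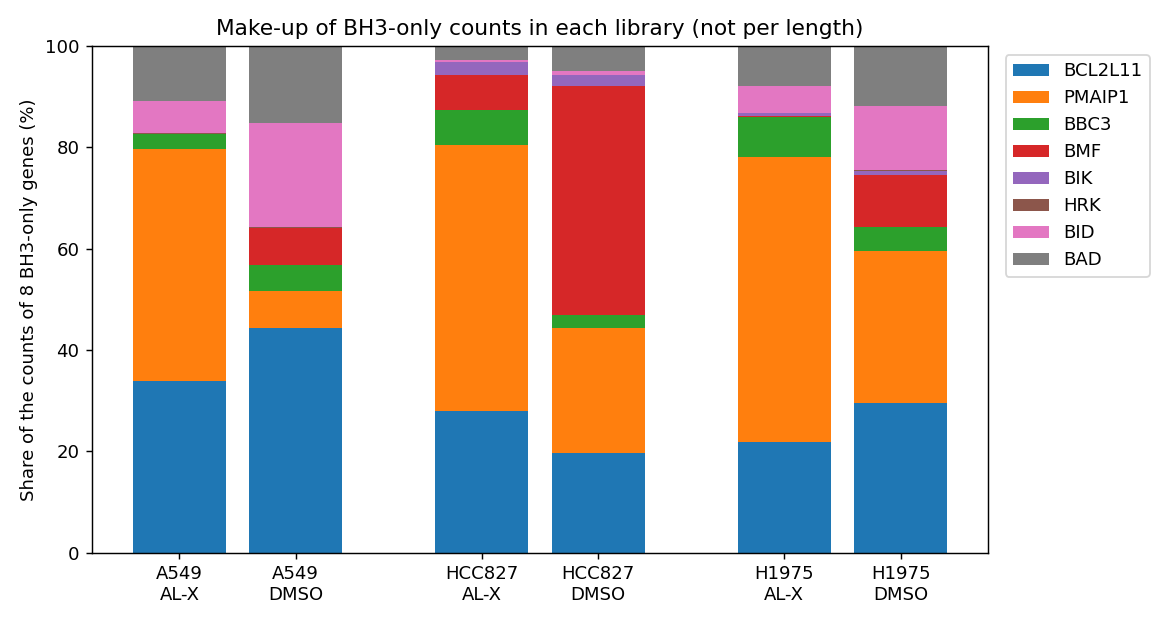
Share of each of 8 BH3-only genes in their summed counts (vertical axis, percent, not per length) in the AL-X and DMSO library of A549, HCC827 and H1975. The PMAIP1 segment is larger with AL-X in each line (45.8% against 7.24% in A549) and the BMF segment is smaller.

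The other genes of the pathway were read from 5 lists. Among the 6 anti-apoptotic partners none passed the across-line test, and their median log2 fold was -0.92. That value includes scarce genes, as BCL2A1 and BCL2L10 reached 5 CPM in no library and BCL2 did so only in A549. Restricted to partners at 5 CPM or more within a line, the 4 genes of A549 gave a median of -0.35. The 3 genes of HCC827 gave -0.15 and the 3 of H1975 gave 0.24, so a fall of the partners as a group was not seen. MCL1, the preferred partner of NOXA, was 2.45 higher across lines (SE 1.05, edgeR adjusted p = 0.293), but only in A549 and H1975. It had 4480 CPM with AL-X and 195 CPM with DMSO in A549, 267 and 296 CPM in HCC827, and 1770 and 265 CPM in H1975. Counts of PMAIP1 per count of MCL1 were accordingly 0.0417 with AL-X and 0.0536 with DMSO in A549, 0.0706 and 0.146 in H1975, and 0.422 and 0.186 in HCC827, so HCC827 was the line in which PMAIP1 was higher relative to MCL1. BCL2L1, which encodes BCL-XL, stood at 0.18 (SE 0.47). The lowest were BCL2L10 (-3.38, SE 1.97) and BCL2 (-1.21, SE 1.41), and BCL2 had 16 counts with AL-X and 649 with DMSO in A549 and at most 36 in a library of the other lines.

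Of 13 transcription factors known to induce BH3-only genes, 1 passed the across-line test as higher and none as lower, with a median of 0.25. Of all genes tested, 0.0983% passed as higher and 0.157% as lower. The gene that passed was DDIT3, which encodes the stress factor CHOP, with a log2 fold of 5.18 (SE 0.78, edgeR adjusted p = 0.0237). It passed under 9 of 12 alternatives, which were applied to it after its value was seen, and did not pass with library totals (4.8, adjusted p = 0.0938), with no filter (5.09, adjusted p = 0.176) or with no replicate block (5.03, adjusted p = 0.569). ATF4, which acts with it, stood at 1.68 (SE 0.84, edgeR adjusted p = 0.352), and its within-line values were 3.37 for A549, -0.37 for HCC827 and 1.93 for H1975. The transcription factor genes TP63 (-4.06, SE 1.24, edgeR adjusted p = 0.176) and TP73 (-2.90, SE 1.5, edgeR adjusted p = 0.368) were the lowest. TP73 was under 5 CPM in every library, and TP63 reached 5 CPM in HCC827 alone. Of 20 genes for proteins that hold, process or receive BH3-only proteins and effectors, 19 were tested and none passed (median 0.52). The 14-3-3 gene YWHAG (1.56, SE 0.69) and the dynein light chain DYNLL1 (1.5, SE 0.73), which tethers BIM, were highest. CASP8, whose product cleaves BID, was lowest (-1.93, SE 0.53, edgeR adjusted p = 0.150), with 11.9 CPM under AL-X and 67.0 CPM under DMSO in A549, 57.6 and 101 CPM in HCC827, and 11.9 and 65.0 CPM in H1975. RPS6KA1, which encodes a kinase that phosphorylates BAD, was at -1.06 (SE 0.54).

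Of 15 relatives with a BH3-like or BAX-like region, 14 were tested and none passed (median 0.04). The BAX-binding adaptor MOAP1 (1.47, SE 0.66) and BCL2L12 (1.44, SE 0.55) were highest, and BCL2L14 (-5.33, SE 1.72) and BCL2L15 (-3.02, SE 1.08) lowest. BCL2L14 was under 5 CPM in every library, and BCL2L15 reached 5 CPM in HCC827 alone. Of 15 genes that act after the mitochondrial pore, none passed (median 0.04). DIABLO, an antagonist of the inhibitor of apoptosis proteins, was at 1.96 (SE 0.61, edgeR adjusted p = 0.182), and the nuclease DFFB (-1.65, SE 0.99) and CASP6 (-1.14, SE 0.59) were lowest.

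Promoter sequence was available from RefSeq (GRCh38.p14) for 9 members, with BIK the exception, and the 250 bases before each annotated start (several for BAD, BMF and BID) were searched on both strands for 6 motifs. TGACGTCA, the cAMP response element, was in no member's window and in 1.65% of all 35116 windows. TGATGNAA, the composite of C/EBP and ATF factors, was in that of HRK alone (3.14% of all windows), and GTAAACA, the forkhead motif, in that of BCL2L11 (2.98%), which also held the NF-kB-like motif (5.07%). The palindrome CACGTG, the E-box, was found in the windows of BAX, BBC3 and BID (6.34% of all windows), and TGANTCA, the AP-1 motif, in that of BBC3 (6.57%). The windows of PMAIP1 and BMF held none of the 6. Those of BAX and BBC3 are shown because, of the members at 2-fold or more higher in H1975, they are those with a match, with the matched letters in capitals. The BAX window, chr19:48954625-48954874 on the plus strand, held 4 E-boxes. Of all windows 0.014% held 4 or more, BAX among them, and that cut is the number found in BAX, so the share is a description only.
BAX: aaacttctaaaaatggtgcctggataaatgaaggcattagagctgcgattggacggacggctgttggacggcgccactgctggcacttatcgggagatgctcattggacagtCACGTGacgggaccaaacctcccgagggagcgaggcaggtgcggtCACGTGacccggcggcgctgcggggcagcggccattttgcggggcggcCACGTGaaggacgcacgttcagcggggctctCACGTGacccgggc
The BBC3 window, chr19:47232668-47232917 on the minus strand, held 1 E-box at 232 bases and 1 AP-1 match at 113 bases before the start.
BBC3: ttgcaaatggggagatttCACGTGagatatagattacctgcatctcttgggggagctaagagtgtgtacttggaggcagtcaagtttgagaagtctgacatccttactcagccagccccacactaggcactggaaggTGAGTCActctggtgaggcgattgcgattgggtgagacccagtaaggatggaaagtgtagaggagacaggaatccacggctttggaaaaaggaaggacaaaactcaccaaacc
A match describes letters only, and binding of any factor was not measured.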

How the data were processed

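Per the labels' protocols, Trizol was used for the RNA and the SureSelect XT HS2 mRNA kit for the libraries. The submitters' processing notes name bcl2fastq 2.20 and GRCh38. Not given in the sources used here are aligner, counter, annotation, strandedness and barcode handling. What the authors deposited were whole-number counts per Ensembl gene, not normalized, in 1 table of 6 columns, each matched to its sample by the label that names it.

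Of 60671 identifiers, 60401 matched a symbol, and positions and merged exonic lengths came from GENCODE release 29. Libraries were paired by the cell line in the labels. The across-line test was edgeR 4.0.16 in R 4.3.3 (TMM, filterByExpr, line as block, robust quasi-likelihood test, Benjamini-Hochberg at 0.05 over 20344 genes). All 10 members passed the filter on low counts, HRK only through its DMSO libraries, and TRIM17 and PXT1 did not. The p-values rest on the spread between the 3 lines and not within a line, as each line and treatment has 1 library, possibly from 1 culture. In edgeR the spread of each gene was also drawn toward the trend over all genes tested. A p-value of 1 gene thus leans on the spread of other genes too. The SE came from the fold and its F value. Within lines, folds used a prior count of 2 and have no test. Intervals (exact Clopper-Pearson, 95%) cover counting error only, because reads may not be independent molecules. The floor of 3 counts stands in for an empty library and is not an interval.

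Alternatives were DESeq2 size factors, library totals, other filters, no mitochondrial genes, DESeq2 1.42.0, limma 3.58.1 with voom, leaving out each line in turn, the block or the robust shrinkage. The fit was tested on simulated counts. The members, lists and motifs were chosen with earlier results of these data known. The text names all members and, of each list, genes past the test and up to 2 at either end, and some results are not reported here. The levels of CASP8, the count ratios and the cut of 4 E-boxes were chosen after values were seen. The BH3 core search required a charged or polar residue after the aspartate, added because the longest BBC3 reading frame held another match.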

Additional observations from a re-analysis of the deposited data

How the results depend on the processing

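The number of members past the across-line test was 0 in the main edgeR analysis. It was 2 with DESeq2 and 2 with limma-voom (PMAIP1 and BMF in both), and between 0 and 1 when a line was left out, the 1 being BMF without A549 or without H1975. The count over all genes was 52. It was 0 with library totals, 0 with no filter, 12 without mitochondrial genes, 1986 with DESeq2 and 661 with limma-voom, and between 106 and 184 with a line left out. With no replicate block, that is without the pairing of libraries by cell line, 0 genes and 0 members passed. The cause of these differences was not tested. BAD reversed to -0.32 with library totals and -0.28 without A549, with up to 0.56 when HCC827 was left out. BAK1 reversed to 0.03 with limma-voom, 0.09 with no replicate block, 0.13 without A549 and 0.20 without H1975, with -0.42 when HCC827 was left out. The other 8 members kept their across-line direction under every alternative run. At 1.5-fold in place of 2-fold, 5 members differed in A549 and 6 in HCC827, where 77.2% and 50.3% of all genes considered did. With library totals 6 of 30 within-line folds changed sign, those of BBC3, BAX, BIK and BAD in A549 and of BAD and BCL2L11 in H1975. With a line left out 1 residual degree of freedom remained. At these depths HRK, and BIK outside HCC827, were too scarce for small differences to be seen.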
